A study of Mus musculus with 4 samples.

Results

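The genes described here are 40 members of the endoplasmic reticulum (ER) secretory pathway and the unfolded protein response, read across blood cells of BL/6 and SM/J mice. They were chosen by symbol from a fixed list, and all 40 symbols were found among the 32285 genes of the files. Ddit3 stands for 2 identifiers of overlapping genes, whose counts were summed. The mice were BL/6 or SM/J, both inbred strains, aged 12 or 20 months, with no treatment or engineered allele named and the number of animals not given in the sources used here. Mononuclear cells of heart-drawn blood went through 10x Genomics 3′ single-cell RNA sequencing, which counts unique molecular identifiers (UMIs), one per captured transcript. The series title places the work in a study of genetic background, age and spinal disc herniation in SM/J mice. Both ages of a strain shared a multiplexed run, so strain and run cannot be told apart. Each strain and age gave 1 library and no biological replicate. The libraries held 3398 cells (BL/6, 12 months), 3102 cells (BL/6, 20 months), 2407 cells (SM/J, 12 months) and 2689 cells (SM/J, 20 months) after filtering. Their median depths were 4060, 4914, 4729 and 8837 UMIs per cell, in the same order. Each library carried 3 tag oligos, and the cells led by 1 tag are called an aliquot here. At 12 months 16 BL/6 cells and 24 SM/J cells were led by a tag of the other age. They were kept in the library totals and belong to no aliquot. No source used here says that an aliquot is an animal, so aliquots show technical spread and were not treated as replicates, and no test between conditions was possible. Intervals are 95% and cover counting error only. The libraries of different strains shared 8 cell barcodes, and those of 1 strain shared 0.

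Secreted and membrane proteins enter the ER through the Sec61 channel, lose their signal peptide, fold with the help of chaperones and disulfide isomerases, and are sent for degradation when folding fails. An overloaded ER activates 3 sensors that start the unfolded protein response, and one of them, Ern1 (IRE1), splices the mRNA of the transcription factor Xbp1. Plasma cells, which secrete antibody, are the textbook case of this programme, and plasmacytoid dendritic cells (pDC), which secrete type I interferon, also have a developed ER.

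Classes were set by clusters and by UMI gates on genes outside the 40. Cells with at least 10 UMIs of Jchain, the joining chain of polymeric IgA and IgM, formed the plasma gate. Cells of the B lineage with at least 5 UMIs of Zcwpw1 were called Zcwpw1-high, and those with at least 3 UMIs of Fras1 and Lmo7 together were called Fras1-Lmo7. Cells that passed more than 1 gate were kept as classes of their own, and the remaining cells of B cell-like clusters were called other B. The plasma gate held 3 cells in BL/6 at 12 months, 46 in BL/6 at 20 months, 13 in SM/J at 12 months and 4 in SM/J at 20 months. A ratio was taken where both sides had at least 20 cells, so that only BL/6 at 20 months could be read for plasma cells alone. In SM/J most Jchain-high cells passed another gate. At 20 months 43 were also Zcwpw1-high and 32 passed all 3 gates, and at 12 months 32 were also Fras1-Lmo7.

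Of the 46 BL/6 cells of the plasma gate, 43 lay in the plasma-like cluster, 2 in a B cell cluster and 1 in a T cell cluster, and 43 had a UMI of at least 2 of Sdc1, Tnfrsf17, Prdm1 and Irf4. The plasma-like cluster was led by Tnfrsf17, Derl3 and 8 cell cycle genes, and 68 of its 120 cells were of SM/J at 20 months, of which 32 were Zcwpw1-high and 25 both Zcwpw1-high and Fras1-Lmo7, all below the Jchain gate. Tnfrsf17, the BCMA receptor of plasma cells, had 400 UMIs there against 2 in the 936 other B cells, and was seen in 40 of 46 cells. Prdm1, the transcription factor Blimp-1, stood at 123 CPM (a gene's UMIs scaled to 1000000 UMIs of the class) against 7.13 CPM. The B cell genes Pax5 and Bank1 were at 3.57 and 42.9 CPM, against 743 and 2759 CPM in other B. All 46 cells had Igha as their leading heavy chain constant region. Cells of the Jchain overlap classes of SM/J differed in that respect: Ighm led in 43 of 43, 32 of 32 and 32 of 32 cells, in the order above. At least 2 of the 4 plasma markers were seen in 21 of 43, 23 of 32 and 6 of 32 of these cells. Tnfrsf17 was seen in 2 of the 43 SM/J cells that passed the Jchain and Zcwpw1 gates, at a median depth of 14052 UMIs against 12075 UMIs in the BL/6 plasma cells.

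The 40 genes together took 2.80% (interval 2.75 to 2.84%) of all UMIs in BL/6 plasma cells at 20 months. In other B cells of the same library they took 0.321% (0.316 to 0.327%). The aliquots gave 2.60% from 9 plasma cells, 2.84% from 21 and 2.85% from 16, so all 3 stood far above every aliquot of other B, which lay between 0.314 and 0.328%. Immunoglobulin and Jchain UMIs made up 20.3% of the plasma total, and without them the share of the 40 genes was 3.51%. Single plasma cells ran from 0.451% to 4.39% with a median of 2.64%. Of the 46 cells, 44 were above 1%, as was 1 of the 936 other B cells, whose highest value was 1.52%. Few cells lay near the gate: the 2 cells with 5 to 9 Jchain UMIs, just outside it, were at 0.828% and the 2 with 10 to 19 UMIs, just inside, at 1.11%, while 42 cells had 50 or more. The 5 plasma cells with 5 or more UMIs of cell cycle genes were at 2.84% and the other 41 at 2.79%.

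**Figure D1:**
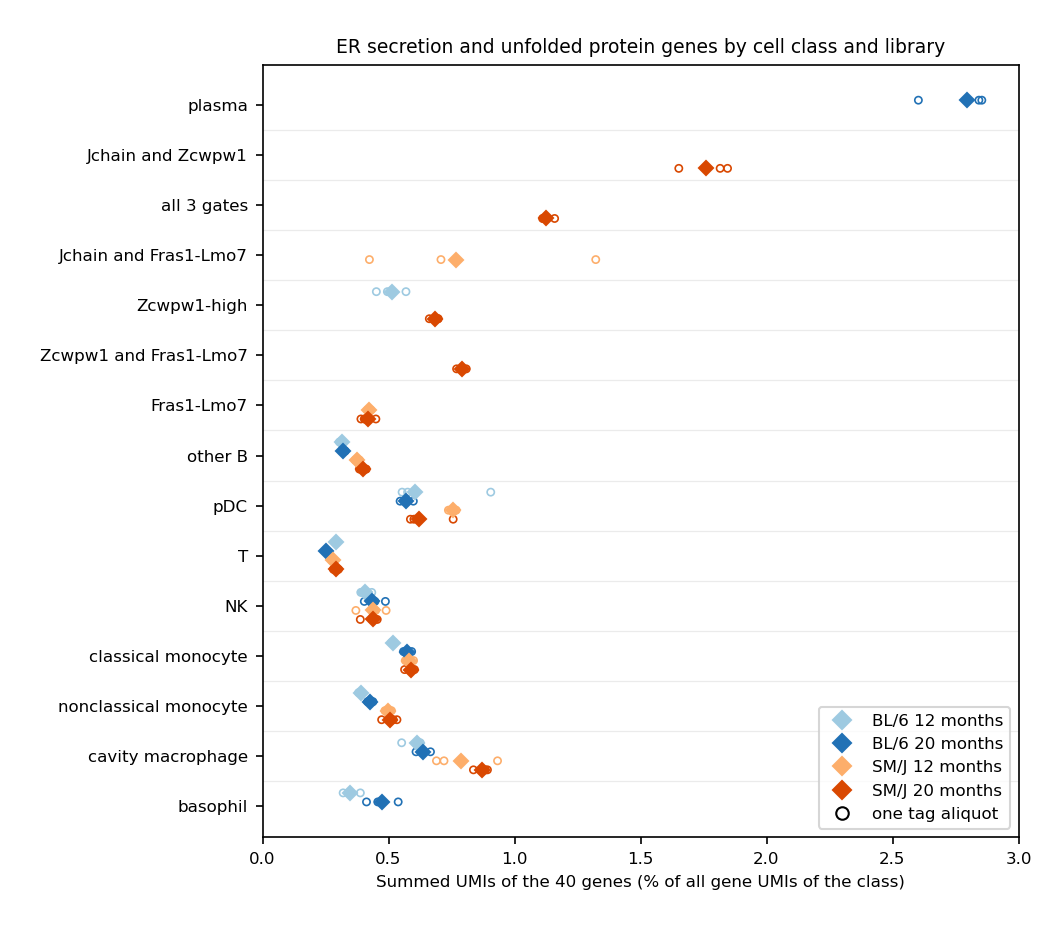
Summed UMIs of the 40 genes as percent of all gene UMIs (x axis) for each cell class of at least 20 cells (y axis), by library (colour). Diamonds are whole classes and open circles their tag aliquots; BL/6 plasma cells lie at 2.80%, SM/J cells of the Jchain and Zcwpw1 gates at 1.76%, and other B cells between 0.314 and 0.400%.

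Gene by gene, all 40 had a ratio above 0 in BL/6 plasma cells over other B cells, 38 of them with an interval that left out 0, and 37 of the 40 were past 2-fold. Among the 5332 genes with a mean of at least 20 CPM, 9.68% were 2-fold or more higher and 26.3% were 2-fold or more lower. The median log2 ratio of (CPM + 10) was 2.89 for the members and -0.43 for all genes tested. Of the 40, 39 passed that level filter and Ddit3 did not. Within aliquots, 3 members were not always higher: Dnajb9 was lower than in other B in aliquots 1 and 2, Atf4 in aliquot 1, and Ddit3, with no UMI in the 16 plasma cells of aliquot 3, was 2-fold or more lower there.

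All 11 members of entry into the ER and signal peptide removal were past 2-fold, with log2 ratios from 1.94 (Ssr1) to 3.57 (Ssr4). Sec11c, a catalytic subunit of the signal peptidase, stood at 1848 CPM in plasma cells against 166 CPM in other B (log2 ratio 3.40, interval 3.26 to 3.54). The channel genes gave 2.09 for Sec61a1, which forms the pore, 3.16 for Sec61b and 2.39 for Sec61g. The other subunits of the translocon-associated complex, Ssr2 and Ssr3, were at 3.53 and 3.20. The peptidase partners Spcs1 and Spcs2 were at 2.88 and 2.87, and Ostc, of the oligosaccharyltransferase, at 2.43. On the scale with 10 CPM added, the fold ran from 3.85 (Ssr1) upward.

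Of the 11 chaperones and folding factors, 10 were past 2-fold. Hsp90b1, the ER member of the HSP90 family, was at 2792, 3965 and 2990 CPM in the plasma aliquots and at 164, 153 and 131 CPM in those of other B. The groups did not overlap, and the log2 ratio was 4.43 (4.30 to 4.57). Hspa5 (BiP), the main ER chaperone, was at 1209, 1664 and 1468 CPM against 143, 139 and 180 CPM, with a log2 ratio of 3.18 (3.03 to 3.33). Sdf2l1, a partner of BiP, gave 4.23, and Manf, a secreted ER stress factor, gave 3.88. Mzb1, a chaperone of B lineage cells that aids antibody assembly, was at 2952 CPM against 278 CPM (3.36). Creld2 gave 3.23, the lectin chaperone Calr 2.91, and the BiP cochaperones Dnajb11 and Dnajc3 gave 2.72 and 2.53. Canx, the membrane-bound lectin chaperone, was at 1.37. The exception was Dnajb9, a cochaperone that restrains IRE1, with 155 CPM against 126 CPM and an interval that held 0 (0.28, -0.04 to 0.59).

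All 6 disulfide isomerases were past 2-fold. Txndc5 was at 1107 CPM in plasma cells against 85.8 CPM in other B (3.54), and Pdia4 at 568 against 37.5 CPM (3.60). Pdia6, Txndc11 and Pdia3 lay close together at 2.89, 2.86 and 2.75. P4hb, the founding isomerase of the family, had the smallest ratio, 1.82 (1.44 to 2.20).

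All 7 genes of ER-associated degradation were past 2-fold. Derl3, a Derlin of the retrotranslocation machinery, had the largest ratio of the 40. It had 186 UMIs in plasma cells, in 91.3% of them at a median depth of 12075 UMIs, against 3 UMIs in 0.321% of other B cells at 3417 UMIs. In T cells, at a median of 5203 UMIs, 0.189% of cells had a Derl3 UMI. Its level was 270, 392 and 288 CPM in the plasma aliquots and 0.825, 1.10 and 0.657 CPM in those of other B, which did not overlap. The log2 ratio of 4.98 rests on the 10 CPM added to both sides, since so few UMIs stood in other B. In classical monocytes of the same library Derl3 had 0 of 4470498 UMIs, which allows up to 0.671 CPM. Edem1 and Edem2, which trim mannose from misfolded glycoproteins, gave 3.32 and 3.18. Selenos, Derl1, Sel1l and Herpud1 gave 2.22, 2.00, 1.82 and 1.73.

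The 5 sensors and regulators were divided, with 3 of 5 past 2-fold. Xbp1 was at 757, 500 and 432 CPM in the plasma aliquots and at 28.9, 21.9 and 16.4 CPM in those of other B. The aliquots did not overlap, and the ratio was 4.08 (3.80 to 4.35). Ern1, the sensor that splices it, was at 168 CPM against 13.4 CPM (2.92), with 60.9 CPM in the lowest plasma aliquot. Atf6, a sensor released by proteolysis, gave 1.29. Atf4, the effector of the PERK sensor, was at 136 against 98.1 CPM (0.43), and Ddit3 (CHOP), its target, had 9 UMIs in all plasma cells (0.22, -0.42 to 0.90). The gene counts do not separate spliced from unspliced Xbp1.

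**Figure D2:**
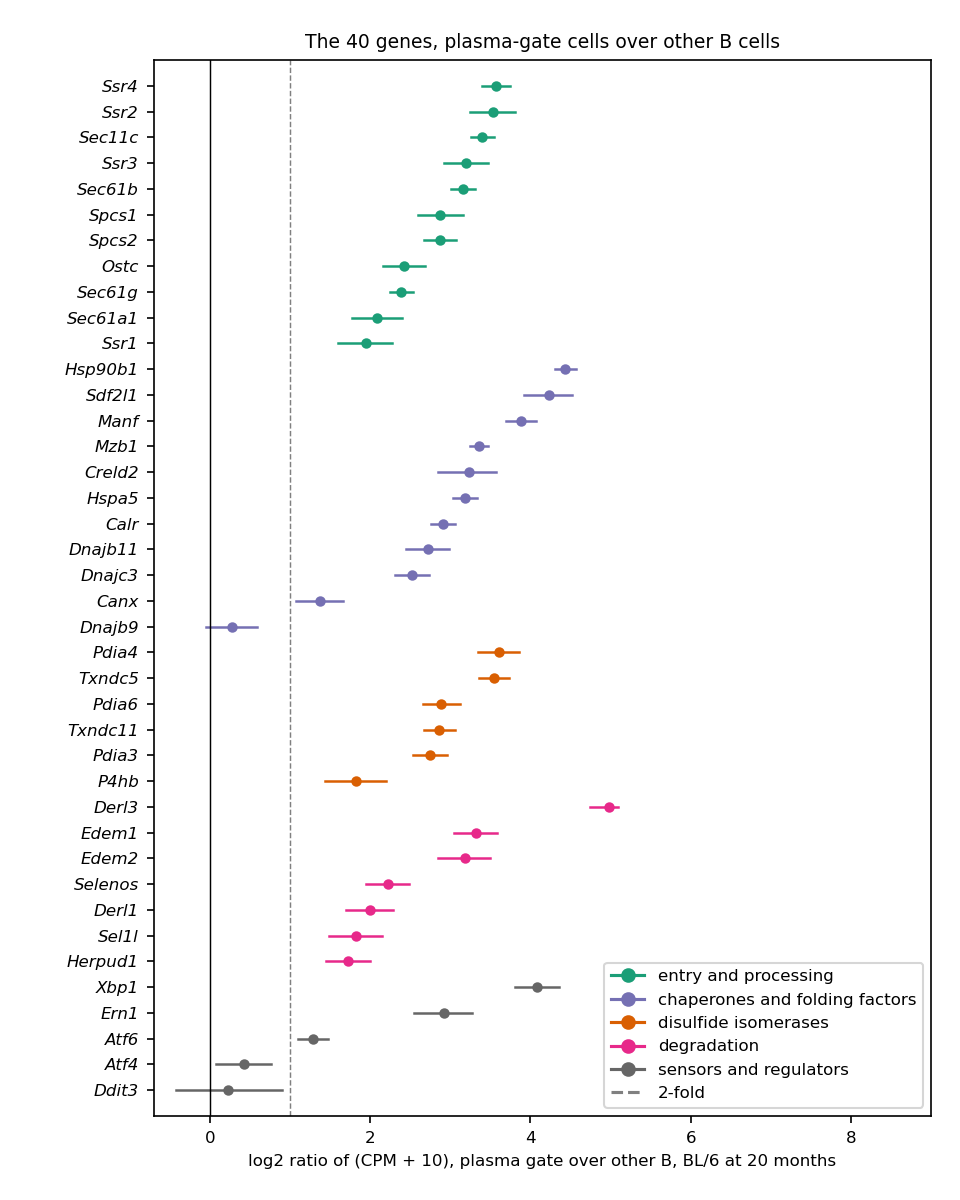
Log2 ratio of (CPM + 10), plasma gate over other B cells of BL/6 at 20 months (x axis), for each of the 40 genes (y axis), grouped and coloured by role; points are ratios, lines 95% intervals for counting error, and the dashed line marks 2-fold. Derl3, Hsp90b1, Sdf2l1 and Xbp1 stand above 4, and Atf4, Dnajb9 and Ddit3 lie below 1.

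A wider list of 82 other ER and secretory genes was also mostly higher in plasma cells. Of the 82, 45 were 2-fold or more higher and 2 were 2-fold or more lower, with a median log2 ratio of 1.12, beside the 9.68% higher and 26.3% lower among all genes tested. The largest were Lman1, a cargo receptor for glycoproteins (3.92), Sec24d, a cargo adaptor of COPII vesicles (3.78), Rpn1, of the oligosaccharyltransferase (3.70), H13, the signal peptide peptidase (3.39), and Tram2 of the translocon (3.23). The lowest were Ero1lb, an oxidase that recharges the isomerases (-1.49), Ppp1r15a, the phosphatase subunit GADD34 that ends PERK signalling (-1.47), Stt3b (-0.98), the sensor Eif2ak3, or PERK itself (-0.95), and the glycoprotein folding sensor Uggt1 (-0.93). By sublist, 8 of 10 oligosaccharyltransferase genes, 14 of 22 vesicle genes and 9 of 15 translocon and signal recognition genes were 2-fold or more higher, as were 6 of 10 degradation genes, 5 of 14 chaperones and folding genes and 3 of 11 sensors and regulators.

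Promoter sequences were searched because 37 of 40 members were past 2-fold in the same class. RefSeq promoters of 300 bases (250 before to 50 after the start, build GRCm38.p6) were held for 32 of the 40 genes, in 35 promoters. The ER stress response element (ERSE), written CCAAT, 9 bases of any kind, CCACG, was searched on both strands. It occurred in 39 of the 32851 promoters of the table (0.119%) and in 8 of the 35 of the members (22.9%), so 8 of the 39 promoters with a match belonged to the 40 genes. The other 24 of the 32 genes had no match. The 40 genes were chosen for the pathway that the element is named after, so this share describes the list and tests nothing. The sites are given here because they are the letters behind that count, each read 5′ to 3′ from the CCAAT side, with the fixed letters in capitals and the spacer in lower case.
Hspa5: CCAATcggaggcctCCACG
Hsp90b1, far site: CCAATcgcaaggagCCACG
Hsp90b1, near site: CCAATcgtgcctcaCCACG
Derl3: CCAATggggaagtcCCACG
Calr: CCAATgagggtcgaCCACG
Canx: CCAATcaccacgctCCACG
Creld2: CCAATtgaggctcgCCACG
Dnajc3: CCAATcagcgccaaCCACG
Pdia6: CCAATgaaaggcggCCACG
The sites begin between 65 bases (Hspa5) and 212 bases (Hsp90b1, far site) before the RefSeq start. That of Hspa5 is at chr2:34772025-34772043 on the strand of the gene, within an exon and untranslated region of a GENCODE vM21 transcript of Hspa5. The Hsp90b1 pair is at chr10:86705638-86705656 and chr10:86705533-86705551, in opposite orientations. The site of Derl3 is at chr10:75893242-75893260, and neither it nor the Hsp90b1 pair overlaps an annotated gene. The 8 genes covered log2 ratios from 1.37 (Canx) to 4.98 (Derl3) in plasma cells, and the other 24 matched members from 0.22 (Ddit3) to 4.23 (Sdf2l1), so the ranges overlapped.

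The stretch of 230 bases before the Derl3 start, chr10:75893168-75893397 on the plus strand, is given because Derl3 had the largest ratio in plasma cells. It overlaps no gene in GENCODE vM21, and the capitals mark the 2 fixed parts of its ERSE, which lies on the opposite strand and so reads in reverse complement.
Derl3, upstream: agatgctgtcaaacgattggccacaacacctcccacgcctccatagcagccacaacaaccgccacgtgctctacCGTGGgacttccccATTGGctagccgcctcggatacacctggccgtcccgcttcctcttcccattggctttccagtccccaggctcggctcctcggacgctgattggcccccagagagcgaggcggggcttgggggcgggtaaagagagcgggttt
The second form of the element, ERSE-II (ATTGG, 1 base, CCACG), occurred in 12 promoters of the table (0.0365%), of which 2 were members: Herpud1 and Dnajb11. The core TGACGTGG was in 2 of the 35 member promoters (5.71%) and in 0.676% of all. The letters CCACG alone, which every ERSE and ERSE-II match also contains, was in 27 of 35 (77.1%) and in 32.8% of all. These are matches of letters within the window, with no measurement of binding.

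In SM/J at 20 months the Jchain-high cells that were also Zcwpw1-high had, among classes of at least 20 cells, the second highest share of the 40 genes, 1.76% (1.73 to 1.79%), with 1.85, 1.65 and 1.82% in the aliquots of 9, 14 and 20 cells. Other B cells of that library were at 0.400%, and Zcwpw1-high cells below the Jchain gate at 0.685%. Over other B, 37 of the 40 were past 2-fold (background 6.47%) with a median log2 ratio of 1.77. The largest were Derl3 (3.92), Xbp1 (3.57), Creld2 (3.10), Pdia4 (2.85), Mzb1 (2.75) and Pdia6 (2.64). Xbp1 was at 513, 321 and 455 CPM in the aliquots, against 20.1, 34.8 and 21.0 CPM in those of other B, without overlap. The 3 members short of 2-fold, named after their values were seen, were Canx (0.39), Dnajb9 (0.48) and Atf6 (0.49). Dnajb9 was thus near the other B level in the BL/6 plasma cells and in these cells, whereas Ern1 was at 41.0 CPM here against 168 CPM in the BL/6 plasma cells.

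Among these SM/J cells the share varied widely. Single cells ran from 0.353% to 4.51% with a median of 1.49%, and 13 of the 43 reached 2.23%, the lower quartile of the BL/6 plasma cells. The pan-B markers summed to 4699 CPM, between 1739 CPM in BL/6 plasma cells and 6726 CPM in the Zcwpw1-high class. The 32 cells that passed all 3 gates were lower still, at 1.13%, with 29 of 40 past 2-fold (background 5.52%) and a median of 1.30. Their median depth was 39370 UMIs, against 8837 UMIs over all cells of the library, and the part of depth in this result was not tested. Xbp1 (2.77), Creld2 (2.57), Derl3 (2.49), Pdia4 (2.00), Ern1 (1.95) and Hsp90b1 (1.94) were the largest there.

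**Figure D3:**
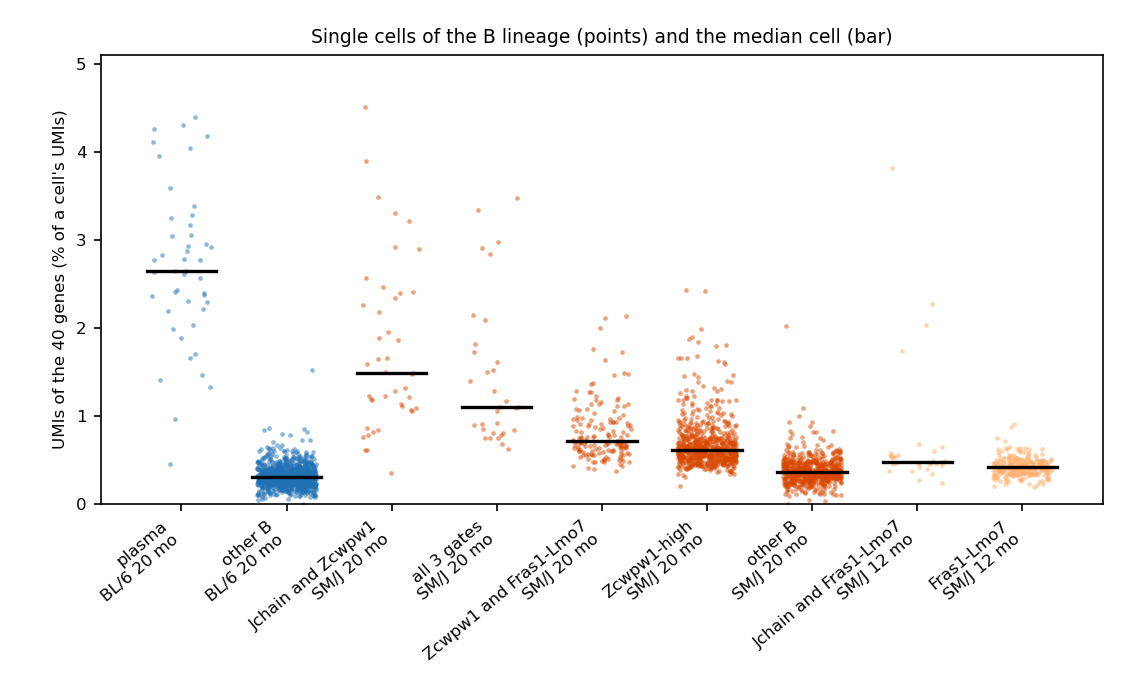
UMIs of the 40 genes as percent of each cell's UMIs (y axis) in B-lineage classes (x axis, with strain and age); points are single cells and bars the median cell. The median falls from 2.64% in BL/6 plasma cells to 1.49% in SM/J cells of the Jchain and Zcwpw1 gates, 0.609% in Zcwpw1-high cells and 0.479% in SM/J cells of the Jchain and Fras1-Lmo7 gates.

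At 12 months the SM/J cells of the Jchain and Fras1-Lmo7 gates were at 0.768%, but a few cells set that value. The median cell was at 0.479%, 4 of 32 cells exceeded 1%, and the aliquots gave 0.424, 1.32 and 0.708%. Over other B, 16 of 40 were past 2-fold, Derl3 below the 20 CPM level among them (background 4.75%), with a median of 0.86, led by Pdia4 (1.97), Xbp1 (1.87), Sel1l (1.85), Creld2 (1.85), Hsp90b1 (1.54) and Mzb1 (1.48). Derl3 had 4 UMIs in the whole class, all in 1 aliquot and in 3.12% of cells. The 13 plasma-gate cells of that library were alike in this: their median was 0.516%, the highest cell was at 4.70%, and 4 exceeded 1%. Of the 13, 2 lay in the plasma-like cluster and 8 in the B cell cluster led by Fras1, and Ighm led in 11. The 4 plasma-gate cells of SM/J at 20 months had a median of 1.15%. Of these, 0 lay in the plasma-like cluster, 2 in a B cell cluster, 1 in a nonclassical monocyte cluster and 1 in the cavity macrophage cluster. The 3 plasma-gate cells of BL/6 at 12 months, all in the plasma-like cluster, had 1.66, 2.22 and 2.97%.

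Zcwpw1-high cells below the Jchain gate, 681 of them in SM/J at 20 months, had a smaller difference. The 40 genes took 0.685% of UMIs there, with 0.662, 0.696 and 0.697% in the aliquots against 0.412, 0.385 and 0.408% in those of other B. The median log2 ratio was 0.55 and 36 of 40 were above 0. No share of all genes above 0 is given beside that count. Past 2-fold were 6 of 40, against a background of 3.67% higher and 3.99% lower. Those 6 were Derl1 (1.46), Mzb1 (1.45), Creld2 (1.42), Sec11c (1.22), Derl3 (1.09) and Ern1 (1.05). Derl3, at 14.6 against 1.51 CPM, was under the 20 CPM level of the background, which the other 5 passed. Mzb1 was at 1300, 1334 and 1341 CPM in the aliquots, against 529, 420 and 506 CPM in other B. The disulfide isomerase Txndc5, by contrast, was at 64.3 CPM against 87.2 CPM (-0.39, -0.57 to -0.20), where the BL/6 plasma cells had a ratio of 3.54. Of the 82 other pathway genes 1 was past 2-fold in each direction, with a median of 0.12.

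Depth and cell cycle genes differed between these classes too. Zcwpw1-high cells had a median of 12320 UMIs against 4746 UMIs in other B, and 241 CPM of cell cycle genes against 18.5 CPM, and their part in the result was not tested. Cells just outside the gate, with 3 or 4 Zcwpw1 UMIs, were at 0.626%, and those just inside, with 5 or 6 UMIs, at 0.632%. Cells with 0 to 2 UMIs were at 0.387%. The gate also took 44 cells in BL/6 at 12 months, which lay in other clusters: the cluster led by Zcwpw1 held 868 cells of SM/J at 20 months and 0 of BL/6. These 44 cells were at 0.514% against 0.314% in other B, with 6 of 40 past 2-fold (background 3.57%): Pdia4 (1.67), Mzb1 (1.59), Sdf2l1 (1.40), Xbp1 (1.23), Ssr4 (1.22) and Creld2 (1.10). Mzb1 and Creld2 were past 2-fold in the Zcwpw1-high cells of both libraries.

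Fras1-Lmo7 cells were close to other B in these genes. Other B of SM/J itself held cells of the clusters led by Fras1 or Zcwpw1 that passed no gate. At 12 months in SM/J, 283 cells were at 0.424% against 0.373% in other B, and the median ratio was 0.01, with 20 members above 0 and 20 below. No member of the 40 was past 2-fold, against a background of 1.94% higher and 2.67% lower. Mzb1, at 736 against 444 CPM (0.72, 0.62 to 0.81), and Pdia4 (0.72) were the highest. Without those clusters in other B the 12-month median was 0.053, and this was not tried at 20 months. At 20 months the 116 cells were at 0.417% against 0.400%, again with 0 members past 2-fold (background 0.721% higher and 0.518% lower). Cells that passed both the Zcwpw1 and the Fras1-Lmo7 gates, 152 in SM/J at 20 months, were at 0.790%, with 16 of 40 past 2-fold, Derl3 again below the level filter (background 4.86%), led by Xbp1 (2.02), Ern1 (1.93), Creld2 (1.71), Mzb1 (1.40), Derl1 (1.38) and Sec11c (1.27). Their median depth was 18626 UMIs.

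The pDC-like cluster had more Ern1 and less Mzb1 than other B. It held 29, 52, 48 and 45 cells in the libraries of BL/6 at 12 and 20 months and SM/J at 12 and 20 months, at 0.606, 0.569, 0.756 and 0.621% of UMIs. The first of these rests in part on an aliquot of 4 cells at 0.906%, beside 0.554 and 0.576% in the others. In BL/6 at 20 months 15 of 40 members were 2-fold or more higher than in other B (background 14.8%) and 3 were 2-fold or more lower (background 10.0%), with a median of 0.80. Ern1 led at 141 CPM against 13.4 CPM (2.69), followed by Sdf2l1 (2.07), Pdia3 (1.68), Sec61b (1.59), P4hb (1.51) and Xbp1 (1.49). The 3 lower members were Mzb1 (-3.92), with 5 UMIs in all 52 cells, Txndc11 (-1.68) and Txndc5 (-1.06). Derl3 had 0 of 554106 UMIs, which allows up to 5.41 CPM.

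Ern1 was likewise highest of the 40 by ratio in pDC-like cells of BL/6 at 12 months (2.66), SM/J at 12 months (3.77) and SM/J at 20 months (3.29), and Mzb1 was lowest in each (-3.12, -3.11 and -3.09). In BL/6 at 20 months Ern1 was at 347 CPM in NK cells, 131 CPM in nonclassical and 144 CPM in classical monocytes, 29.1 CPM in T cells and 13.4 CPM in other B. Mzb1 was low in every class outside the B lineage. In pDC-like cells it was at 23.7, 9.02, 42.8 and 47.5 CPM in the 4 libraries, in T cells at 2.01, 2.94, 11.0 and 4.00 CPM, and in NK cells at 11.7 and 15.3 CPM in SM/J. In BL/6 NK cells it had 0 UMIs, which allows up to 5.49 CPM at 12 months and 10.1 CPM at 20 months. The counts past 2-fold higher than other B were 16, 18 and 13 of 40 in BL/6 at 12 months and SM/J at 12 and 20 months, against backgrounds of 15.0, 16.3 and 18.1%. In each of these libraries 0 disulfide isomerases were 2-fold or more lower, unlike Txndc11 and Txndc5 in BL/6 at 20 months. Set side by side, BL/6 plasma cells were 2-fold or more above pDC-like cells in 34 of 40 members (background 8.64%), led by Mzb1 (7.28), and Ern1 differed by 0.24 with an interval that held 0 (-0.18 to 0.66).

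The pDC-like cluster was mixed. In BL/6 at 20 months, 26 of its 52 cells had no UMI of Siglech, the defining pDC surface lectin, and those had 691 CPM of the conventional dendritic gene Cd209a against 211 CPM in the 18 cells with at least 3 Siglech UMIs. The 40 genes took 0.644% in those 18 cells, 0.479% in the 8 cells with 1 or 2 Siglech UMIs and 0.555% in the 26 cells without one. In BL/6 at 12 months the 10 cells with at least 3 UMIs were at 0.614% and the 16 without one at 0.605%, with overlapping intervals. Xbp1 in BL/6 at 20 months was at 144 CPM with at least 3 Siglech UMIs and at 47.0 and 48.6 CPM with fewer and with none, and Hspa5 at 322, 169 and 448 CPM. Txndc5, which was 2-fold or more lower than other B in the whole cluster, was at 66.6, 28.2 and 18.7 CPM in that order. Other B cells of that library had 85.8 CPM, so the cells with at least 3 Siglech UMIs were nearest to them. In SM/J at 20 months, where 27 cells had at least 3 UMIs and 18 had none, Hspa5 was at 343 against 253 CPM and Cd209a at 259 against 122 CPM. Mzb1 there was at 79.98 against 17.4 CPM. Mzb1 in BL/6 was at 64.4 CPM against 0 at 12 months, where 0 counts allow up to 16.4 CPM, and at 16.7 against 3.73 CPM at 20 months. SM/J at 12 months had 4 cells without Siglech, too few to set beside the others. In SM/J at 12 months 42 of 48 cells had at least 3 Siglech UMIs, so the cluster did not hold the same mixture in each library.

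**Figure D4:**
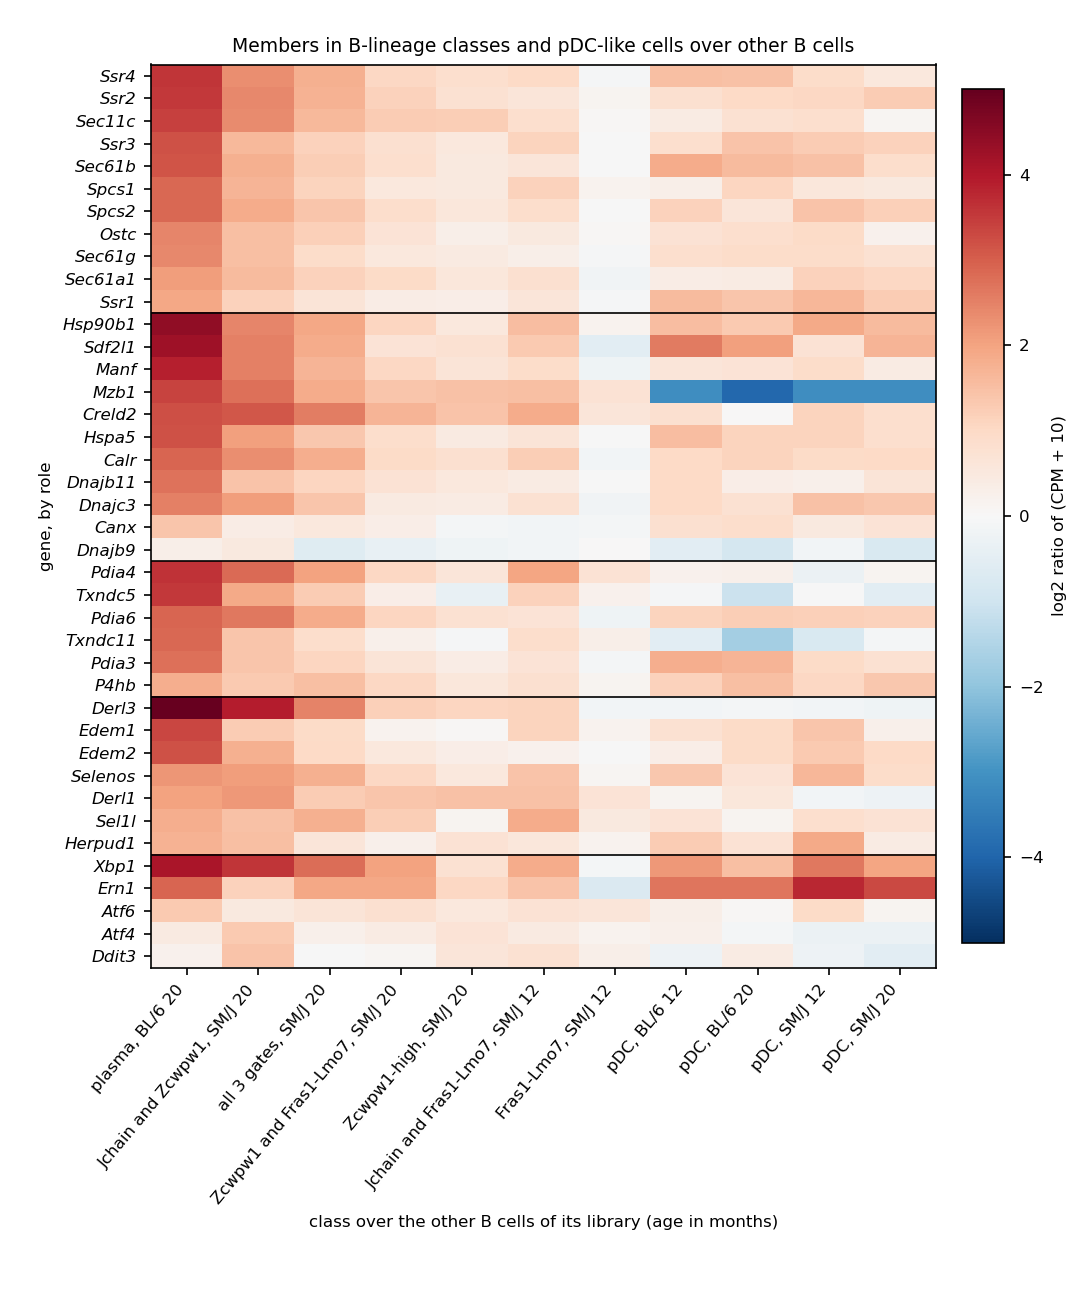
Log2 ratio of (CPM + 10) over the other B cells of the same library (colour) for the 40 genes (rows, by role) in B-lineage classes and pDC-like cells (columns, with strain and age in months). Mzb1 and Derl3 are above 1 in each column of a Jchain gate, Mzb1 is low in all 4 pDC columns, and Ern1 is the highest gene of each pDC column, at 2.66 to 3.77.

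Among the remaining lineages the share of UMIs was lowest in T cells, at 0.253 to 0.292% across libraries, and intermediate in NK cells, at 0.407 to 0.440%. Classical monocytes were at 0.517 to 0.588% and nonclassical monocytes at 0.389 to 0.507%. Among whole classes outside the B lineage, the cluster with cavity macrophage markers had the highest share in each library, at 0.612% (BL/6, 12 months), 0.636% (BL/6, 20 months), 0.786% (SM/J, 12 months) and 0.872% (SM/J, 20 months). The pDC-like cells with at least 3 Siglech UMIs alone were at 0.614, 0.644, 0.777 and 0.723% in the same order. Cells with 1 or 2 Siglech UMIs are not in these values. They were at 0.584 and 0.479% in BL/6 at 12 and 20 months and at 0.570% in SM/J at 12 months, from 3, 8 and 2 cells. In BL/6 at 20 months plasma cells had the highest CPM of 34 of the 40 genes. In the other libraries, where no class of plasma cells alone reached 20 cells and the Jchain overlap, Zcwpw1-high and Fras1-Lmo7 classes were left out of the count, pDC-like cells led for 11 (BL/6, 12 months), 15 (SM/J, 12 months) and 6 (SM/J, 20 months) members. Cavity macrophage-like cells led for 12, 13 and 16 members in the same libraries. No share of all genes led by each class is given beside these counts. They therefore do not set the members apart from other genes.

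Between ages, no member was past 2-fold in other B cells. In BL/6 the 40 genes took 0.314% at 12 months and 0.321% at 20 months, with a median log2 ratio of 0.02 (20 over 12 months) and 0 members past 2-fold; the background was 0.249% higher and 0.107% lower. In SM/J they took 0.373% and 0.400%, with a median of 0.02 and 0 members past 2-fold, against 0.28% higher and 0.354% lower. These medians were within the range over pairs of aliquots, some of which were negative. The BL/6 median turned to -0.04 with TMM factors and to -0.01 without aliquot 3 of 20 months.

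Between strains, other B cells of SM/J had the higher share at both ages. SM/J was at 0.373% against 0.314% in BL/6 at 12 months, and at 0.400% against 0.321% at 20 months. The SM/J aliquots, 0.369 to 0.385% and 0.385 to 0.412%, did not overlap those of BL/6, 0.306 to 0.320% and 0.314 to 0.328%. B cell clusters divided by strain: clusters 0, 1 and 2 held mostly BL/6 cells, while clusters 3 and 18 held mostly SM/J cells. Median log2 ratios were 0.12 and 0.20, beside -0.09 and -0.18 for all genes tested, and 0 members were past 2-fold at either age. Without the clusters led by Fras1 or Zcwpw1, which the aliquot shares above include, the medians were 0.075 and 0.134. The 12-month median was 0.062 at a mitochondrial limit of 5% or with 50 CPM added. The 20-month median ran from 0.109 with 50 CPM added to 0.348 with TMM factors. The backgrounds were 1.4% higher and 1.23% lower at 12 months, and 2.11% higher and 3.82% lower at 20 months. Mzb1 was at 444 against 282 CPM at 12 months (0.64) and 479 against 278 CPM at 20 months (0.77), and Txndc11 was lower in SM/J at 20 months (-0.75).

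In the cavity macrophage-like cells SM/J was again the higher strain, with medians of 0.36 at 12 months and 0.38 at 20 months. At 12 months Sdf2l1 (1.35) and Herpud1 (1.14) were past 2-fold (background 4.53%), and at 20 months Creld2 (1.39), Manf (1.25) and Herpud1 (1.15), against 3.01%. The 2 BL/6 libraries had only 30 and 38 such cells, and SM/J had 35 and 397. Basophil-like cells could be compared only in BL/6, where 56 cells at 20 months were at 0.474% and 40 cells at 12 months at 0.348%. There 7 of 40 members were 2-fold or more higher (background 9.25%, for genes at the 20 CPM level, which 6 of the 7 reached), 5 of them with an interval that left out 0: Ssr1 (1.62), Sec61g (1.44), Atf6 (1.25), Sec61b (1.17) and Ssr3 (1.02). The 1 member 2-fold or more lower (background 4.14%) was Mzb1, with 0 against 2 UMIs, below the level filter and with an interval that held 0.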

How the data were processed

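The values are unnormalized counts of UMIs for each gene in each cell, as deposited, which the authors made with Cell Ranger 7.0.1 per the file headers. The submitters' processing notes also name Seurat 4.3.0 and the build mm10, with no role. Age was read from the matrix names that the labels list. Of 12299 deposited cells, 11596 were kept (at least 500 UMIs and 200 genes, at most 10% mitochondrial UMIs, 125 Scrublet doublets left out at an expected rate of 0.06). Deposited totals per library ran from 14250603 to 30627357 UMIs. Cells were clustered in scanpy 1.11.5 on 2000 variable genes without the 40 members (30 components, 15 neighbours, Leiden resolution 1.0), giving 24 clusters, of which 1 stayed unnamed. The names come from markers and not from an annotation by the authors.

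UMIs were summed per class and library and scaled to CPM. Ratios are log2 of (CPM + 10), which understates the change of low genes, with exact conditional binomial 95% intervals. Shares have exact binomial (Clopper-Pearson) intervals, and a count of 0 is given with the level that 3 counts allow. The background is all genes with a mean of at least 20 CPM in the groups compared. The scripts were tested on simulated counts. With 1 library per strain and age no p-value was computed.

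All 40 members are named in the plasma comparison. Elsewhere at most the 6 largest each way are named among those past 2-fold with an interval that leaves out 0, and other names were chosen after their values were seen. The members, gates and lists were chosen with earlier results of these data known. Ero1b and Hm13 of the pathway list were matched by the older symbols Ero1lb and H13. Mzb1, Derl1, Manf, Ostc, Sec11c, Sec61a1, Ssr2 and Atf6 were not matched in the RefSeq promoter table. TMM factors came from edgeR 4.0.16, used for scaling only. The other gates, filters, pseudocounts and clusterings tried are given with their effect in the closing section.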

Additional observations from a re-analysis of the deposited data

Results flagged for a closer look

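Of 240 pairs of a member and a cell class, 3 had an age change of opposite direction in the strains in every pairing of aliquots. All 3 were among the 214 pairs with a mean of at least 20 CPM over the libraries, where 2.39% of all 34594 pairs of a gene and a class met the same rule, so the members' share was not above that of other genes. The difference between strains was not tested, and strain and run cannot be told apart. In other B cells Txndc11, a disulfide isomerase, had a log2 ratio of 20 over 12 months of 0.33 in BL/6 and -0.34 in SM/J, a difference of 0.66. In T cells Sec11c, of the signal peptidase, had -0.29 in BL/6 and 0.34 in SM/J, a difference of -0.63. In classical monocytes the chaperone Hspa5 had 0.27 in BL/6 and -0.36 in SM/J, a difference of 0.63.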

How the results depend on the processing

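The count of members past 2-fold in BL/6 plasma cells was 37 under each alternative tried, and the share of the 40 genes was 3.51% without immunoglobulin UMIs. The cause of the other shifts was not tested, except that TMM factors shift the log2 ratio of CPM, before the 10 CPM are added, by 0.41 for plasma cells, 0.17 for Zcwpw1-high cells, -0.13 for pDC-like cells and 0.18 between strains at 20 months. The plasma median was 3.19 without immunoglobulin UMIs, 3.25 with TMM factors, 3.02 with a pseudocount of 1 CPM and 2.27 with 50 CPM. The Zcwpw1-high median in SM/J at 20 months was 0.70 with TMM factors, 0.37 with 50 CPM, 0.63 with a mitochondrial limit of 5% and 0.66 without the clusters led by Fras1 or Zcwpw1 in other B. The Fras1-Lmo7 median at 12 months was 0.042 with the 5% limit, 0.044 with gates of 10 and 6 UMIs, 0.053 without those clusters and 0.017 to 0.062 with 1 aliquot left out. The pDC median in BL/6 at 20 months was 0.68 with TMM factors, 0.89 with cells weighted equally, 0.87 with 1 CPM, 0.57 with 50 CPM, 0.71 with the 5% limit, 1.07 with doublets kept, 1.07 at resolution 2.0 and 0.98 in cells with at least 3 Siglech UMIs. The BL/6 age median changed sign to -0.037 with TMM factors and ran from -0.011 (without aliquot 3 of 20 months) to 0.041 with 1 aliquot left out, and the SM/J age median from 0.016 to 0.090. The strain median at 12 months was 0.154 with TMM factors, 0.157 with cells weighted equally, 0.154 with 1 CPM, 0.062 with 50 CPM, 0.062 with the 5% limit, 0.075 without those clusters and 0.104 to 0.182 with 1 aliquot left out. At 20 months it was 0.348 with TMM factors and 0.109 with 50 CPM. The alternatives with Siglech and without those clusters were chosen after seeing the data.

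With no level filter the background counts of genes past 2-fold differed by over 1.5 times in several comparisons. Higher genes went from 15 to 34 (SM/J age), 77 to 130 and 117 to 205 (strains at 12 and 20 months), 474 to 720 (plasma over pDC), 476 to 1251 (basophil-like) and 261 to 418 and 175 to 270 (cavity macrophage-like). Lower genes went from 6 to 14 (BL/6 age), 212 to 324 (Zcwpw1-high), 143 to 216 and 28 to 76 (Fras1-Lmo7 at 12 and 20 months) and 213 to 591 (basophil-like). No paired analysis was possible because the labels give no replicates that pair libraries between strains or ages, and ratios between classes were taken within each library. Depth limits the low members: Ddit3 had 9 UMIs in all BL/6 plasma cells, and classes under 20 cells were given no ratio.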
